A study of Mus musculus with 12 samples.

Results

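Kinesins are motor proteins that walk along microtubules, and their genes are described here in cells of the embryonic mouse spinal cord sorted by the Hb9:GFP reporter. The genes were taken by name, as every row of the count table whose symbol is Kif followed by a number and an optional letter, which gave 36 of 30740 gene symbols. They were divided by known role into 11 mitotic kinesins, 10 kinesins of axonal transport, 5 other transport kinesins, 6 kinesins of cilia, centrioles and ciliary signalling, 3 that act on microtubule ends or as scaffolds, and Kif12.

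Cells came from the ventral spinal cord of CB6F1/J embryos at E12.5 (embryonic days), all carrying the Hb9:GFP transgene, in which the Mnx1 promoter drives GFP in motor neurons of the cord. There were 5 GFP-positive libraries from Arhgap35 knockout embryos and 5 from controls, and 1 GFP-negative library of each genotype. Arhgap35 encodes p190. Control libraries are labelled wild type, but the protocol describes the control embryos as littermates that were wild type or p190+/-; embryos were pooled before sorting, and the design of the knockout allele was not stated in the labels. The labels call the GFP-negative cells motor neurons too, and they are named here by their GFP status.

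Dividing cells use mitotic kinesins to build the spindle, to move chromosomes along it and to cut the cell in 2 at cytokinesis. Neurons no longer divide, and their axons depend on kinesins that carry vesicles, mitochondria and cytoskeletal proteins outward from the cell body toward the growing tip. Most mitotic kinesin genes are switched on late in the cell cycle. Their promoters are known for a pair of short elements, the cell cycle homology region (CHR, TTTGAA or TTCGAA) and the CCAAT box, through which repressor and activator complexes act in cycling and resting cells.

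Promoter sequences of 300 bases, covering 250 bases before and 50 bases after the start of transcription, were found for 30 of the 36 kinesins in RefSeq on GRCm38.p6. The first listed start of each gene was used and both strands were searched. A CHR was found in 9 of 10 mitotic kinesin promoters and in 0 of 7 axonal transport promoters, against 19.4% of all 27025 promoters. A CCAAT box was found in 6 of the 10 mitotic and 3 of the 7 axonal promoters, against 37.9% of all promoters. The same window held both elements in 6 of the 10 mitotic and 0 of the 7 axonal promoters, against 7.7% of all promoters. Among the other kinesins, Kif24, Kif26b and Kif27 also held both elements. Of these, Kif24 was lower in GFP-positive than in GFP-negative cells, while Kif26b and Kif27 were higher. The Kif27 window lies wholly inside the gene as GENCODE draws it, 4175 bases downstream of its start. The windows of Kif2c, Kif14 and Kif4 lie wholly inside the gene as GENCODE draws it, 3867, 1505 and 328 bases downstream of its start, so for those 3 genes they do not cover the stretch before that start. A match is a stretch of letters and was not tested as a binding site.

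The first 4 promoters below belong to mitotic kinesins of the spindle, the midzone, astral microtubules and chromosome arms, and are shown because they hold both elements close together. The fifth, of Kif5c, belongs to the transport kinesin with the highest level in the GFP-positive cells and holds neither. Capitals mark each CHR and CCAAT box (TTCAAA and ATTGG on the opposite strand), and each sequence is written 5′ to 3′ along its gene. The windows are chr19:37376132-37376431 (plus strand) for Kif11, chr9:61946750-61947049 (minus strand) for Kif23, chr11:102925075-102925374 (minus strand) for Kif18b, chrX:100625815-100626114 (plus strand) for Kif4 and chr2:49619036-49619335 (plus strand) for Kif5c.
Kif11: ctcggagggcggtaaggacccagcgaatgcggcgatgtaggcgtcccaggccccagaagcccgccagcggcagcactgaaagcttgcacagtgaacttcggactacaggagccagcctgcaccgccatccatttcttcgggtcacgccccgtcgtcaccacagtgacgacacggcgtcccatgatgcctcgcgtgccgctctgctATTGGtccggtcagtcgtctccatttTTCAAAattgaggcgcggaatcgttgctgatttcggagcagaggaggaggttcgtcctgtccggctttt
Kif23: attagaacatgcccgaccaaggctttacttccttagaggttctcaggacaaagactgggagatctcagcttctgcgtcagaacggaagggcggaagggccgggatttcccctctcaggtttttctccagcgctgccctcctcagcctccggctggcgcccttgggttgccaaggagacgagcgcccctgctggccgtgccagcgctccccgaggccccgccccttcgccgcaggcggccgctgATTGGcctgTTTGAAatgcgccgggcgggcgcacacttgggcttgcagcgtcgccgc
Kif18b: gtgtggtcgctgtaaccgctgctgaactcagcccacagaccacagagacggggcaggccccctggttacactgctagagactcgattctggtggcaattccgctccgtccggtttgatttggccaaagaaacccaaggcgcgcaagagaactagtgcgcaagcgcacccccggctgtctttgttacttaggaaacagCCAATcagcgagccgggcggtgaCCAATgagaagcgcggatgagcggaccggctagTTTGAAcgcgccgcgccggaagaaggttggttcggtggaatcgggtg
Kif4: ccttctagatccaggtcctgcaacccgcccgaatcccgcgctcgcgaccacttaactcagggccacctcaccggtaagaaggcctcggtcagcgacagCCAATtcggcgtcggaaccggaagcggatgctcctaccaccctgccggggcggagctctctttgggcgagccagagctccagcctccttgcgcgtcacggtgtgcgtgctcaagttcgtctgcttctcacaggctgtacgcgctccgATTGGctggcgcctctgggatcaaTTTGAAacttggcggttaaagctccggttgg
Kif5c: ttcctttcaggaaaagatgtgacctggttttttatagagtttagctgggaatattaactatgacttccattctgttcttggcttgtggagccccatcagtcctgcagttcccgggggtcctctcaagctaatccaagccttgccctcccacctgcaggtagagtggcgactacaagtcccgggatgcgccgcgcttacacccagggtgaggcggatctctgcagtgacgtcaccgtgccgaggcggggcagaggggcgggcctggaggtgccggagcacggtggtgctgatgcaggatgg
Counting the first transcribed base as 1, the Kif11 promoter has its CCAAT box from -45 to -41 and its CHR from -19 to -14. In Kif23 the CCAAT box lies from -7 to -3 and the CHR from 3 to 8. The CHR of Kif18b lies from 4 to 9, downstream of CCAAT boxes that begin at -53 and -30. In all 3 of these genes the CHR thus follows the CCAAT box within 60 bases of the start.

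Libraries held 24.6 to 33.8 M (1e6) estimated counts in knockout and 23.7 to 30.2 M in control GFP-positive cells, and 26.5 and 28.7 M in the knockout and control GFP-negative cells. At this depth 3 counts correspond to 0.0898 to 0.128 CPM (counts per 1e6, scaled by TMM). The targeted gene Arhgap35 (chr7:16493719-16614993) had 98.8, 88.2, 103, 107 and 89.6 CPM in knockout libraries 1 to 5, against 162, 202, 178, 187 and 135 CPM in control libraries 1 to 5, so the genotypes did not overlap (log2 fold change -0.83 ± 0.10 SE, edgeR adjusted p = 0.0240). The table has a second row under Grlf1, an older symbol of Arhgap35 in RefSeq, with 0, 8.33, 8.12, 7.22 and 7.45 CPM in knockout libraries 1 to 5, against 23.7, 66.1, 46.9, 71.8 and 34.5 CPM in control libraries 1 to 5 (log2 fold change -2.96 ± 0.64 SE, edgeR unadjusted p = 0.0015, adjusted p = 0.9999). The call for Arhgap35 was lost with libraries paired by number (adjusted p = 0.162) and when 9 of the 10 libraries were left out in turn (adjusted p of 0.0562 to 0.141), though not without control library 5. Motor neuron markers summed to 1302 to 1652 CPM in GFP-positive libraries, against 61.0 and 66.0 CPM in the knockout and control GFP-negative libraries, and all 8 were called higher in GFP-positive cells. Neural progenitor markers were called lower in 12 of 12 cases, with sums of 412 to 553 CPM in GFP-positive cells against 2297 and 2122 CPM in the knockout and control GFP-negative cells. Markers of dorsal interneurons (9 of 10), ventral interneurons (6 of 10), mesenchyme (5 of 6), erythroid cells (7 of 7), microglia (6 of 6) and endothelium (3 of 8) were also called lower in GFP-positive cells. None of these lists had a marker called higher. Over all 19763 genes tested, 31.8% were called lower and 30.1% higher in this comparison, and endothelium lay near that share of lower calls. Sensory neuron markers summed to 1029 to 1502 CPM in GFP-positive libraries, against 186 and 201 CPM in the knockout and control GFP-negative libraries: Isl1, which is also on the motor neuron list, Prph and Sncg were higher, Pou4f1 and Prdm12 were lower, and the other 3 were not called. The GFP-negative libraries thus held RNA of several cell types, and in bulk samples fewer cells of a type and less RNA per cell cannot be told apart.

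GFP-positive cells held far less of the mitotic kinesins than GFP-negative cells and more of most axonal transport kinesins. Of 35 kinesins tested, 17 were higher and 17 lower in GFP-positive cells, where 30.1% and 31.8% of all 19763 genes tested were called higher and lower, 61.9% in all, and Kif13b was not called. All 11 mitotic kinesins fell, with a median log2 fold change of -3.44, and 8 of 10 axonal transport kinesins rose, with a median of 0.51; the median over all genes tested was 0.02. The same 35 genes also passed the filter on low counts in the GFP-positive libraries alone, so none was kept only for its level in GFP-negative cells. Calls are from edgeR's quasi-likelihood test over all 12 libraries with genotype as a covariate, adjusted by Benjamini-Hochberg, and the GFP-negative side rests on 2 libraries. For 34 of the 35 genes, the 10 GFP-positive libraries all lay on the same side of both GFP-negative libraries. How often this held over all genes tested was not counted, so it cannot be read as particular to kinesins.

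**Figure D1:**
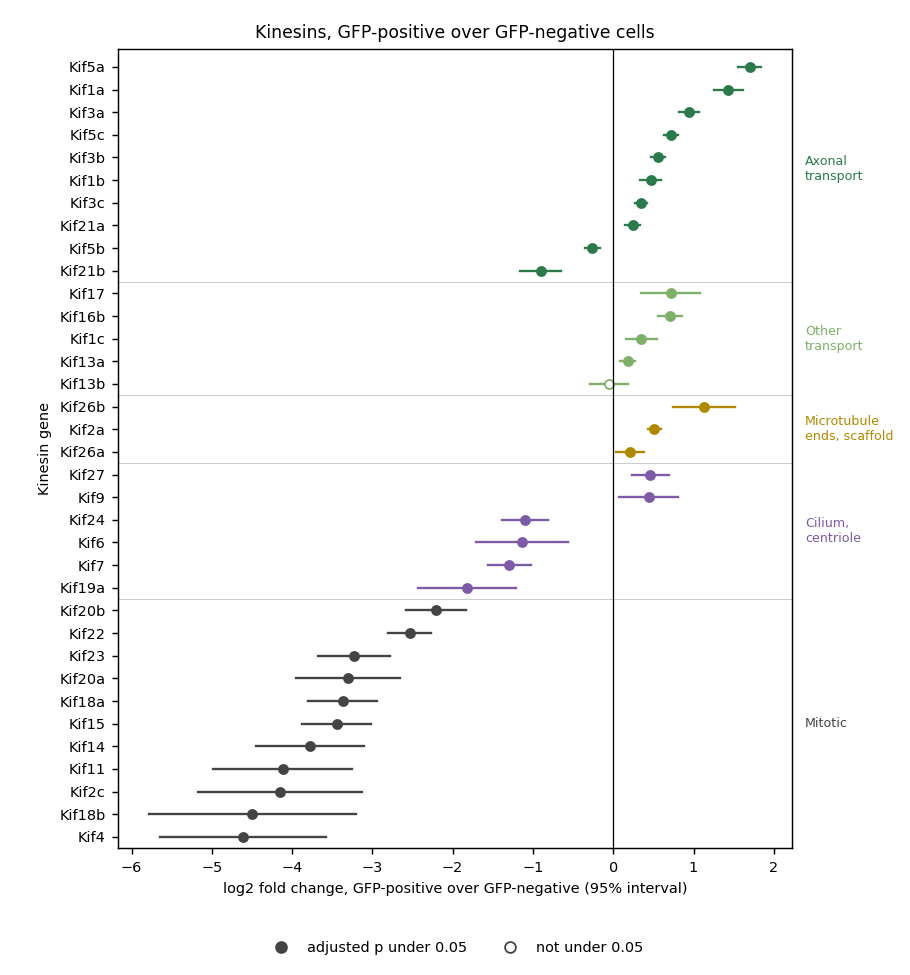
Log2 fold change of each tested kinesin in GFP-positive over GFP-negative cells (x axis), with 95% intervals, by role; filled points have an adjusted p under 0.05. The 11 mitotic kinesins lie between -4.61 and -2.21, and the 10 axonal transport kinesins between -0.91 and 1.70.

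Among the spindle motors, Kif11, which pushes the spindle poles apart, had 5.88, 4.17, 2.73, 1.83 and 1.44 CPM in knockout and 5.78, 3.45, 2.30, 1.83 and 2.36 CPM in control GFP-positive libraries 1 to 5, against 63.3 and 46.8 CPM in the knockout and control GFP-negative libraries. Every GFP-positive library was far below both GFP-negative ones (log2 fold change -4.12 ± 0.39 SE, edgeR adjusted p = 4.11e-06; -3.24 with libraries paired by number). Kif15, a second motor that keeps the poles apart, had 2.85 to 4.66 CPM in knockout and 2.41 to 5.25 CPM in control GFP-positive libraries, against 44.2 and 37.4 CPM in the knockout and control GFP-negative libraries. Kif18a, which shortens microtubules at kinetochores, fell by 3.37 and Kif18b, which acts on astral microtubules, by 4.49 on the log2 scale. With libraries paired by number the log2 fold change of Kif18b was -3.16, a fold 2.53 times smaller. Kif18b had 0.240 to 1.26 CPM in knockout and 0.167 to 2.33 CPM in control GFP-positive libraries, the lowest of them close to the level of 3 counts, against 17.8 and 14.7 CPM in the knockout and control GFP-negative libraries.

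Chromosome motors fell as well. Kif4, which binds chromosome arms and the central spindle, had the largest fall of all kinesins, 4.61 on the log2 scale (SE 0.47, edgeR adjusted p = 5.62e-06; log2 fold change -3.63 with libraries paired by number). Its CPM were 1.82, 1.48, 1.27, 0.419 and 0.378 in knockout and 2.46, 1.32, 0.628, 0.417 and 0.717 in control GFP-positive libraries 1 to 5, against 27.3 and 25.6 in the knockout and control GFP-negative libraries. All 10 GFP-positive values were thus under 10% of either GFP-negative value. Kif22, which pushes chromosome arms toward the spindle equator, fell less, by 2.53, with 4.43 to 5.76 CPM in knockout and 4.52 to 7.08 CPM in control GFP-positive libraries, against 33.8 and 29.0 CPM in the knockout and control GFP-negative libraries. Kif2c, which takes tubulin off microtubule ends at the centromere, fell by 4.15 (log2 fold change -3.10 with libraries paired by number), and averaged 1.62 ± 0.91 CPM in knockout and 1.67 ± 1.25 CPM in control GFP-positive libraries (SD, n = 5 each), against 32.6 and 25.8 CPM in the knockout and control GFP-negative libraries.

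The cytokinesis motors fell too. Kif23, the motor of the centralspindlin complex that organises the midzone, fell by 3.23, Kif20a, which brings the chromosomal passenger complex to the midzone, by 3.30, and Kif14, which acts with citron kinase at the midbody, by 3.78 on the log2 scale. With libraries paired by number the log2 fold changes of Kif20a and Kif14 were -2.64 and -3.13. Kif23 had 2.20 to 4.02 CPM in knockout and 2.17 to 5.05 CPM in control GFP-positive libraries, against 34.2 and 27.6 CPM in the knockout and control GFP-negative libraries. Kif20b, which acts at abscission, fell least of the 11, by 2.21, and the GFP-positive mean was 21.7% of the GFP-negative mean, compared with 4.12% for Kif4. Reads of Kif20a and Kif4 may include some from Cdc23 and Pdzd11, genes on the opposite strand that share 29.3% and 15.1% of their exonic bases, since the library kit does not keep strand.

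The mitotic kinesins summed to 41.2, 34.1, 30.0, 24 and 21.0 CPM in knockout and 48.6, 32.8, 25.9, 22.1 and 22.3 CPM in control GFP-positive libraries 1 to 5, against 354 and 287 CPM in the knockout and control GFP-negative libraries. The libraries numbered 1 were the highest in both genotypes, for 9 of the 11 genes among knockouts and 11 of 11 among controls. Proliferation markers, which include Mki67, Top2a and Cdk1, moved with them: all 15 were lower in GFP-positive cells, and 15 of 15 were highest in library 1 among controls and 13 of 15 among knockouts. Their sums were 85.1, 66.9, 48.5, 27.6 and 26.2 CPM in knockout and 109, 53.6, 36.4, 26.6 and 29.0 CPM in control GFP-positive libraries, against 991 and 816 CPM in the knockout and control GFP-negative libraries, and no marker was at 0 in every library. The GFP-positive mean was 9.42% of the GFP-negative mean for the mitotic kinesins and 5.63% for the proliferation markers. Both GFP-negative libraries also carry number 1, so with libraries paired by number the GFP difference is estimated only among the libraries numbered 1. In that fit the fold moved by over 1.5 times for 6 of the 11 mitotic kinesins and for no other kinesin of the 35. All 11 were still called. The part of dividing cells in the mitotic kinesin signal of the GFP-positive libraries was not tested. Without both libraries numbered 1, an alternative chosen after seeing the data, the mitotic median was -3.56 and the calls stayed at 17 higher and 17 lower.

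**Figure D2:**
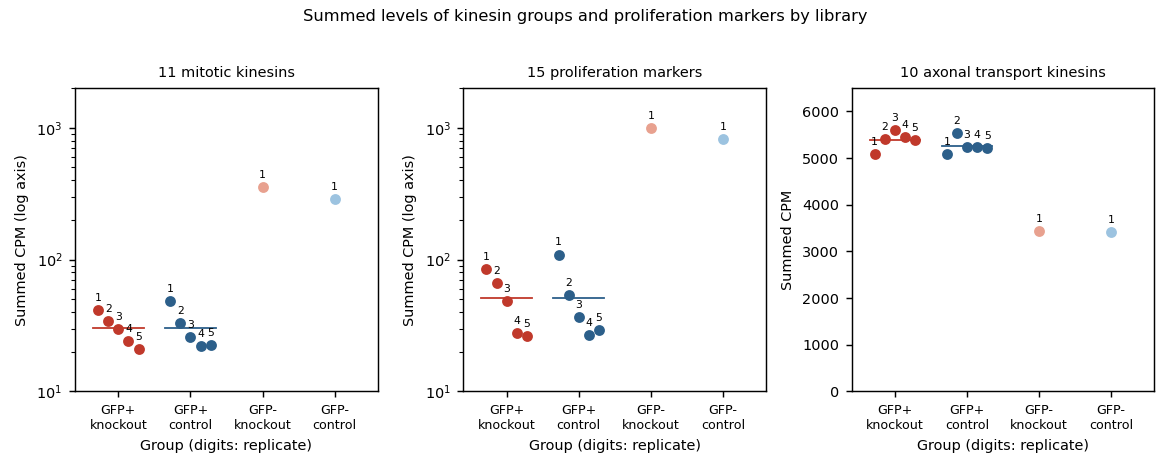
Summed CPM of the mitotic kinesins and the proliferation markers (log axes) and of the axonal transport kinesins (linear axis from 0) in each library; digits are replicate numbers and lines are means of 5 libraries. In both genotypes the GFP-positive library numbered 1 is highest in the first pair of panels, while the axonal sums lie between 5092 and 5602 CPM in GFP-positive cells.

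The axonal transport kinesins summed to 5092 to 5602 CPM in knockout and 5093 to 5533 CPM in control GFP-positive libraries, against 3444 and 3406 CPM in the knockout and control GFP-negative libraries. Kif5a, the neuron-restricted heavy chain of kinesin-1, rose most. It had 797, 876, 899, 906 and 933 CPM in knockout and 788, 862, 899, 878 and 915 CPM in control GFP-positive libraries 1 to 5, against 268 and 267 CPM in the knockout and control GFP-negative libraries. The lowest GFP-positive library was over 2 times either GFP-negative one (log2 fold change 1.70 ± 0.07 SE, edgeR adjusted p = 2.71e-10). Kif1a, a kinesin-3 motor that carries synaptic vesicle precursors, had 850.0, 996, 1043, 991 and 1021 CPM in knockout and 827, 1030, 959, 930 and 965 CPM in control GFP-positive libraries, against 357 and 349 CPM in the knockout and control GFP-negative libraries. Its log2 fold change was 1.43 ± 0.08 (SE), and library 1 was the lowest in both genotypes.

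The other kinesin-1 heavy chains moved in opposite directions. Kif5c, the second neuronal heavy chain, rose by 0.72 ± 0.04 (SE) on the log2 scale, with 1147 to 1234 CPM in knockout and 1109 to 1205 CPM in control GFP-positive libraries, against 712 and 695 CPM in the knockout and control GFP-negative libraries. Kif5b, the heavy chain found in most tissues, had 144, 138, 152, 152 and 140 CPM in knockout and 140, 136, 146, 145 and 140 CPM in control GFP-positive libraries, against 172 and 168 CPM in the knockout and control GFP-negative libraries. Its fall was small but every GFP-positive library lay below both GFP-negative ones (log2 fold change -0.26 ± 0.04 SE, edgeR adjusted p = 1.16e-04).

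Kinesin-2 subunits rose, led by Kif3a, the subunit shared by the complexes with Kif3b or Kif3c. Kif3a had 298 to 330 CPM in knockout and 285 to 332 CPM in control GFP-positive libraries, against 165 and 157 CPM in the knockout and control GFP-negative libraries (log2 fold change 0.94 ± 0.06 SE). Kif3b rose by 0.55 and Kif3c by 0.34, and 35.3% of the exonic bases of Kif3c lie opposite the antisense gene 1110002L01Rik, whose reads cannot be told apart here. Kif1b, whose isoforms carry mitochondria and synaptic vesicle precursors, rose by 0.47 ± 0.06 (SE).

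The kinesin-4 pair Kif21a and Kif21b, which carry cargo and limit microtubule growth, also split. Kif21a rose by 0.24 ± 0.04 (SE). Kif21b had 372, 315, 331, 364 and 297 CPM in knockout and 410, 360, 286, 374 and 287 CPM in control GFP-positive libraries, against 618 and 644 CPM in the knockout and control GFP-negative libraries. It was the one axonal transport kinesin with a fall close to a halving, and no GFP-positive library reached the GFP-negative level (log2 fold change -0.91 ± 0.12 SE, edgeR adjusted p = 2.86e-05).

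Of 5 other transport kinesins, 4 rose, where 30.1% of all genes tested were higher. Kif16b, which moves early endosomes, rose by 0.71 ± 0.07 (SE), and Kif17, a motor of dendrites and cilia, by 0.71 ± 0.17 (SE) from a low level of 2.28 and 2.22 CPM in the knockout and control GFP-negative libraries. The call for Kif17 was lost in knockout libraries alone (adjusted p = 0.0635). Kif1c, a motor of vesicles around the Golgi, rose by 0.35, a call lost without the control GFP-negative library (adjusted p = 0.0655). Kif13a, an endosomal motor, rose by 0.18, a call lost without the knockout GFP-negative library (adjusted p = 0.0596). Kif13b, whose product carries vesicles toward the plasma membrane, had 16.3 to 22.5 CPM in knockout and 15.2 to 19.7 CPM in control GFP-positive libraries, against 20.3 and 17.3 CPM in the knockout and control GFP-negative libraries, a difference within the spread of the libraries (log2 fold change -0.05, 95% interval -0.29 to 0.19, edgeR adjusted p = 0.724).

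Cilium and centriole kinesins were lower for 4 of 6 members and higher for 2, where 31.8% and 30.1% of all genes tested were lower and higher. Kif7, which works at the tip of the cilium in Hedgehog signalling, had 4.04 to 5.77 CPM in knockout and 4.92 to 6.0 CPM in control GFP-positive libraries, against 14 and 11.4 CPM in the knockout and control GFP-negative libraries (log2 fold change -1.30 ± 0.12 SE). Kif24, which keeps centrioles from growing cilia, fell by 1.10, Kif6, of ependymal cilia, by 1.13 and Kif19a, which limits cilium length, by 1.82 on the log2 scale, Kif19a at 0.253 to 0.612 CPM in GFP-positive cells. The call for Kif6 was lost on log2(TPM + 1) (adjusted p = 0.374) and on log2(TPM + 0.1) (adjusted p = 0.366). Kif27, a close relative of Kif7, rose by 0.46, a call lost in control libraries alone (adjusted p = 0.0753), and Kif9, of motile cilia, by 0.44. The call for Kif9 (adjusted p = 0.0392) was lost with libraries paired by number (adjusted p = 0.126) and without any 1 of 5 libraries (adjusted p of 0.0528 to 0.331), among them either GFP-negative one. For Kif7, 19.1% of its exonic bases lie opposite the antisense gene 9330171B17Rik.

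The 3 kinesins of microtubule ends and scaffolds all rose, where 30.1% of all genes tested were higher. Kif26b, which has no known motor activity and acts in cell adhesion, had 87.9 to 115 CPM in knockout and 76.6 to 129 CPM in control GFP-positive libraries, against 43.0 and 44.0 CPM in the knockout and control GFP-negative libraries (log2 fold change 1.13 ± 0.18 SE, edgeR adjusted p = 1.55e-04). Kif2a, a kinesin-13 that takes tubulin off microtubule ends and restrains axon branches, rose by 0.51, in contrast to its mitotic relative Kif2c. Reads of Kif2a may include some from Dimt1, which covers 19.2% of its exonic bases on the opposite strand. Kif26a, a scaffold of growth factor signalling, rose by 0.21 (adjusted p = 0.0335), a call lost without the control or the knockout GFP-negative library (adjusted p = 0.122 and 0.214). Kif12 had at most 0.0838 CPM in any GFP-positive library, under 3 counts, and was not tested.

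Levels of different genes can be compared only per transcript length, as in the deposited TPM, transcripts per 1e6. In GFP-positive cells Kif5c was the highest kinesin, with 446 ± 25.2 TPM in knockout and 425 ± 23.0 TPM in control libraries (SD, n = 5 each). Kif5a followed with 325 ± 17.7 TPM in knockout and 320 ± 16.8 TPM in control libraries. Kif1a had 273 ± 20.03 TPM in knockout and 262 ± 20.6 TPM in control libraries, and Kif1b had 262 ± 13.9 TPM in knockout and 262 ± 12.8 TPM in control libraries. Among controls the libraries of Kif1a and Kif1b overlapped, while those of Kif5c, Kif5a and the pair did not. Kif3a (174 ± 13.2 TPM in controls) and Kif2a (142 ± 8.88 TPM) came next and overlapped, followed by Kif3c, Kif21b and Kif21a at 97.5, 93.4 and 91.7 TPM, which also overlapped. Kif5b had 71.4 ± 2.53 and Kif3b 48.6 ± 1.56 TPM in controls, and the highest mitotic kinesin, Kif22, had 6.34 ± 1.11 TPM. From Kif22 downward most neighbours in the order overlapped between libraries.

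**Figure D3:**
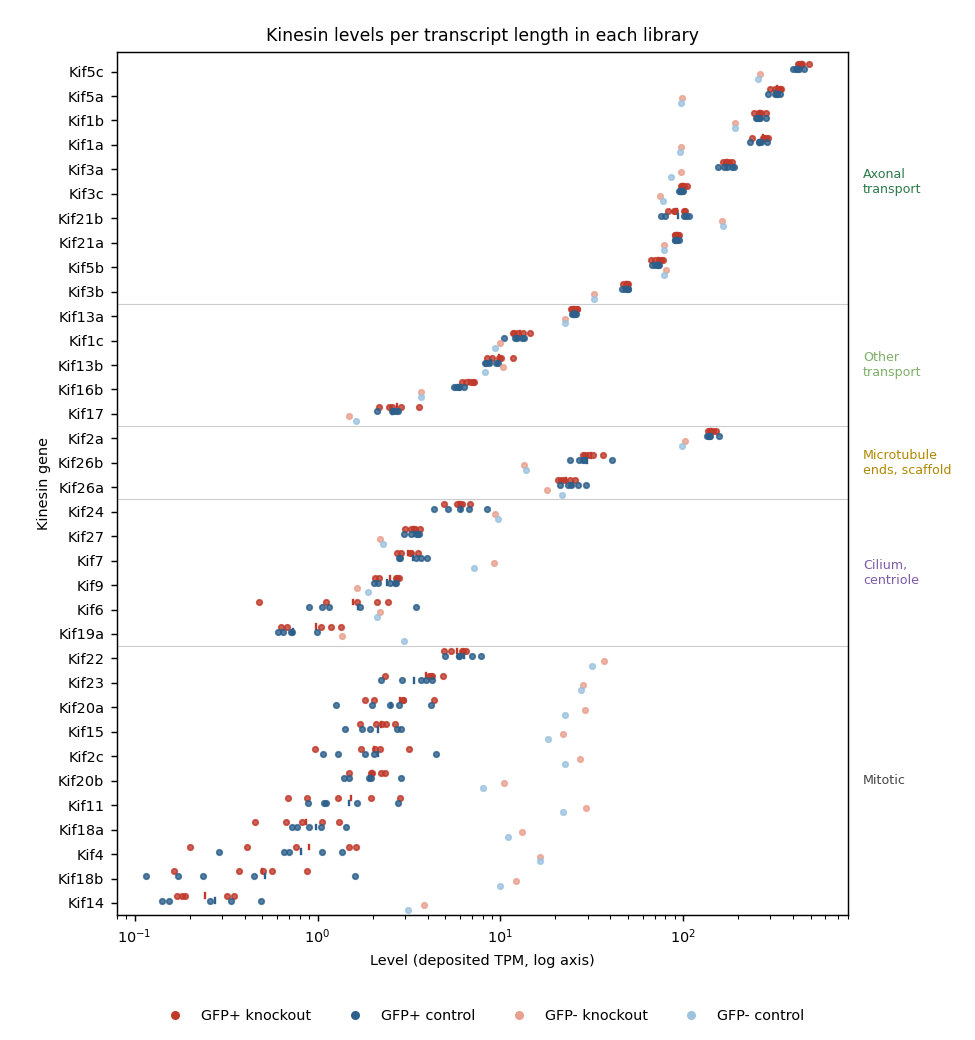
Deposited TPM (log axis) of 35 kinesins in each library, by role; each point is a library and short vertical lines are means of 5 GFP-positive libraries. Axonal transport kinesins lie between 46.2 and 488 TPM in GFP-positive cells and mitotic kinesins between 0.115 and 7.89 TPM.

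The 5 highest kinesins, Kif5c, Kif5a, Kif1b, Kif1a and Kif3a, made up 67.8% of the summed kinesin TPM in knockout and 67.5% in control GFP-positive cells, against 46.4% and 46.7% in the knockout and control GFP-negative libraries. The share of the mitotic kinesins was 1.05 ± 0.28% in knockout and 1.06 ± 0.34% in control GFP-positive cells (SD, n = 5 each), against 14.2% and 12.4% in the knockout and control GFP-negative libraries. Axonal transport kinesins still held 73.0% and 74.4% of kinesin TPM in the knockout and control GFP-negative libraries, so the mixed GFP-negative cells were also rich in transport motors. Of 10 neuron markers, 8 were higher and 1 lower in GFP-positive cells, where 30.1% and 31.8% of all genes tested were. These markers summed to 18861 to 22094 CPM in GFP-positive libraries, against 7293 and 7445 CPM in the knockout and control GFP-negative libraries. The neurofilament genes Nefl and Nefm had the largest rises, by 4.29 and 4.72 on the log2 scale, while Map2, a dendritic microtubule protein, fell by 0.27 and Elavl3, a neuronal RNA-binding protein, was not called (log2 fold change 0.08, edgeR adjusted p = 0.0923). The part of neuron and sensory marker differences in the transport kinesin levels was not tested.

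Within kinesin-1, Kif5a made up 38.6 ± 1.59% of heavy chain TPM in knockout and 39.2 ± 1.63% in control GFP-positive libraries (SD, n = 5 each), against 22.2% and 22.6% in the knockout and control GFP-negative libraries. Kif5b made up 8.64% and 8.75% in knockout and control GFP-positive cells, against 18.2% and 18.1% in the knockout and control GFP-negative libraries. Kif5c held the largest share everywhere, 52.8% and 52.0% in knockout and control GFP-positive cells, against 59.6% and 59.3% in the knockout and control GFP-negative libraries. The make-up of kinesin-1 thus differed by sort, and the 5 knockout and 5 control shares overlapped for each gene. Among the kinesin-2 partners of Kif3a, Kif3b made up 32.7% of the Kif3b and Kif3c TPM in knockout and 33.3% in control GFP-positive cells, against 30.2% and 29.6% in the knockout and control GFP-negative libraries.

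**Figure D4:**
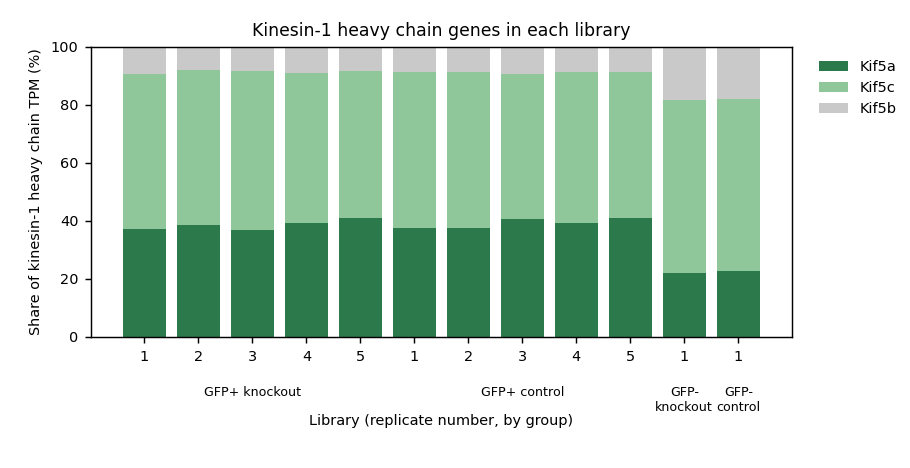
Share of Kif5a, Kif5c and Kif5b in the summed TPM of the kinesin-1 heavy chain genes (y axis, percent) in each library. Kif5a holds 36.9 to 40.9% in the GFP-positive libraries and 22.2 and 22.6% in the knockout and control GFP-negative libraries.

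Loss of Arhgap35 was compared with control within the GFP-positive cells, 5 libraries each. No kinesin was called in either direction by edgeR (0 of 35), where 0.0343% of all 17487 genes tested were called, and DESeq2, limma-voom and limma on log2 TPM also called none. With libraries paired by number 0 kinesins were called, where 0.0286% of all genes were. At an unadjusted p under 0.05 there was 1 kinesin, Kif16b, with each of these tools. By edgeR this was 1 of 35, compared with 2.14% of all genes. The fit on log2 TPM left out genes with a mean under 1 TPM, among them Kif4, Kif14, Kif18a, Kif18b and Kif19a. The median log2 fold change was -0.06 for mitotic kinesins, 0.03 for axonal transport kinesins and 0.01 for all 35, beside a median of -0.0016 over all genes tested.

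Kif16b had 15.4, 16.7, 14.9, 15.9 and 16.3 CPM in knockout libraries 1 to 5, against 13.9, 14.2, 13.8, 14.7 and 13.9 CPM in control libraries 1 to 5. It was the only kinesin of 35 tested whose genotypes did not overlap, a pattern seen in 0.486% of all genes tested. Its log2 fold change was 0.16 (95% interval 0.05 to 0.28), with an edgeR adjusted p of 0.9999, and 0.792 with libraries paired by number. In GFP-negative cells it had 9.03 CPM in the knockout and 9.06 CPM in the control library.

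For the kinesins with the next smallest p the genotypes overlapped. Kif13b had a log2 fold change of 0.15 (95% interval -0.06 to 0.35), Kif5c of 0.05 (-0.02 to 0.12), Kif26a of -0.09 (-0.24 to 0.05) and Kif3c of 0.03 (-0.03 to 0.10), each with an edgeR adjusted p of 0.9999. For Kif5c the CPM were 1167, 1197, 1234, 1184 and 1147 in knockout libraries, against 1155, 1205, 1139, 1109 and 1112 in control libraries, and the genotypes overlapped. Kif26a had 62.1 to 65.1 CPM in knockout libraries, against 61.2 to 80.1 CPM in control libraries, where libraries 1 and 4 were the high ones. Ventral interneuron markers summed to 85.3 and 87.3 CPM in those 2 control libraries, against 17.0 to 40.9 CPM in the other 3 controls. They summed to 16.9 to 64.5 CPM in knockout libraries, where libraries 1 and 4 were again highest, at 64.5 and 52.4 CPM. Kif26a in these 2 knockout libraries lay within the 62.1 to 65.1 CPM of the other knockout libraries. In the knockout and control GFP-negative libraries the markers summed to 309 and 354 CPM, and Kif26a had 53.6 and 59.3 CPM. The part of ventral interneuron markers in the level of Kif26a was not tested.

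In pairs of libraries with the same number, 5 of the 35 kinesins differed one way in all 5 pairs, against 6.64% of all genes tested. Kif16b, Kif1c, Kif20a and Kif5a were higher in the knockout library of each pair and Kif7 was lower, though Kif5a had 899 CPM in both libraries numbered 3. With libraries paired by number the edgeR adjusted p were 0.978 for Kif1c, 0.980 for Kif20a, 0.986 for Kif5a and 0.980 for Kif7.

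The intervals of the main fit, which does not pair libraries by number, show which changes that fit could hide. They lay within 1.5-fold in either direction for 28 of the 35 kinesins and within 1.2-fold for 14. Intervals with libraries paired by number are not given here. Kif3b had 114 to 123 CPM in knockout libraries, against 116 to 123 CPM in control libraries (log2 fold change 0.00, 95% interval -0.07 to 0.07). Kif5a had 797 to 933 CPM in knockout libraries, against 788 to 915 CPM in control libraries (log2 fold change 0.02, 95% interval -0.09 to 0.13). Intervals of that fit were widest among mitotic kinesins, as for Kif18b, whose interval ran from -1.78 to 1.35 around -0.21. With libraries paired by number the log2 fold change of Kif18b was 0.10 (edgeR unadjusted p = 0.771). Without pairing, the median of the mitotic group was 0.23 without control library 1 and -0.20 without knockout library 1. These libraries had the highest proliferation markers of each genotype, so the sign of that median followed which of them was left out.

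**Figure D5:**
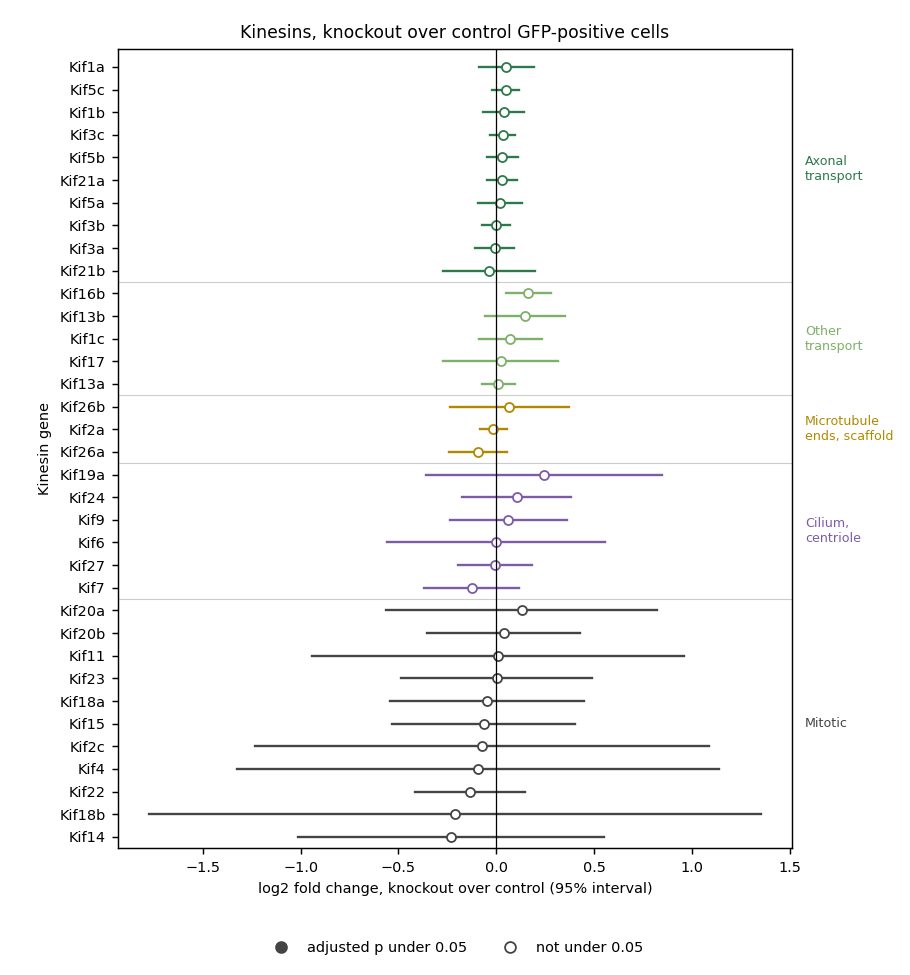
Log2 fold change of each tested kinesin in knockout over control GFP-positive cells (x axis), with 95% intervals, by role; open points have an adjusted p of at least 0.05. All 35 points are open, and the interval of Kif16b, from 0.05 to 0.28, is the only one that leaves out 0.

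Genes that work with the kinesins were read from the same fits. Of 19 light chains, adaptors and cargo regulators, 11 were higher and 3 lower in GFP-positive than in GFP-negative cells, with a median log2 fold change of 0.30, where 30.1% and 31.8% of all genes tested were higher and lower. Klc1, a kinesin-1 light chain abundant in neurons, had 911 to 1054 CPM in knockout and 927 to 1028 CPM in control GFP-positive libraries, against 477 and 496 CPM in the knockout and control GFP-negative libraries (log2 fold change 1.01 ± 0.06 SE). Arl8a, a small GTPase that links kinesins to lysosomes and synaptic vesicle precursors, rose by 1.00, Kifap3, the accessory subunit of kinesin-2, by 0.79 and Mapk8ip2, a kinesin-1 adaptor, by 0.66. Trak1, which ties kinesin-1 to mitochondria, fell by 0.18, Klc4, another light chain, by 0.15 and Rhot2, a mitochondrial anchor, by 0.15. Without the control GFP-negative library the calls for Klc4 and Rhot2 were lost (adjusted p = 0.259 and 0.109), as they were with libraries paired by number (adjusted p = 0.0896 and 0.122), and the call for Trak1 was lost in control libraries alone (adjusted p = 0.0860).

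Of 6 kinesins whose names fall outside the rule, 2 were higher and 3 lower, where 30.1% and 31.8% of all genes tested were. Cenpe, the kinetochore motor, fell by 3.82 and Kifc1, the minus-end motor that focuses spindle poles, by 2.60, while Kifc2, a minus-end motor of neurons, rose by 1.75 and Stard9 by 0.96. Kifc5b fell by 1.71, and since it is nearly identical to Kifc1, how reads were shared between the 2 genes is uncertain. Of 26 genes of dynein, dynactin and their regulators, which drive transport back to the cell body, 20 rose and 1 fell, with a median of 0.35, where 30.1% and 31.8% of all genes tested were higher and lower. Dync1i1, the neuronal dynein intermediate chain, had 19.5 to 28.6 CPM in knockout and 16.3 to 26.6 CPM in control GFP-positive libraries, against 1.41 and 1.35 CPM in the knockout and control GFP-negative libraries (log2 fold change 4.04 ± 0.24 SE). Dynlt3, a dynein light chain, rose by 1.38, Dctn1, the dynactin subunit that binds dynein, by 0.71 and Pafah1b1, the dynein regulator known as Lis1, by 0.64. The gene that fell was Nde1, a dynein regulator used in dividing progenitors, by 3.51, with 2.85 to 7.22 CPM in knockout and 3.08 to 9.01 CPM in control GFP-positive libraries, against 57.5 and 50.0 CPM in the knockout and control GFP-negative libraries.

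Between knockout and control GFP-positive cells edgeR called none of these partner genes, where 0.0343% of all genes tested were called. The smallest p belonged to Klc3, a light chain of low level here, with 0.986, 1.4, 1.59, 1.2 and 1.85 CPM in knockout libraries 1 to 5, against 0.698, 0.808, 0.921, 0.750 and 0.971 CPM in control libraries 1 to 5. The genotypes did not overlap, a pattern seen in 0.486% of all genes tested (log2 fold change 0.76, edgeR unadjusted p = 0.0026, adjusted p = 0.9999). Klc3 lies on chromosome 7 at chr7:19394437-19404104, the chromosome that also holds Arhgap35, and 28.1% of its exonic bases lie opposite Ercc2; whether either bears on its level was not tested. The next smallest p in each list were those of Spag9, a JNK-pathway adaptor of kinesin-1 (log2 fold change 0.05), Hook3, a dynein adaptor (0.06), Dynlt3 (0.08), Stard9 (0.13) and Kifc3, a minus-end motor (-0.05), all with an edgeR adjusted p of 0.9999.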

How the data were processed

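RNA of sorted cells was sequenced as polyA-selected 50-base single ends and the kit gives no strand, per the labels' protocols. The authors deposited estimated counts per gene symbol and TPM, made with kallisto (no version) and mm10 per the submitters' processing notes. The deposited TPM columns sum to 974800 to 1018241, not to 1e6, and no label or header says why. The tests used the estimated counts, rounded, after filterByExpr and TMM scaling: edgeR's quasi-likelihood test with robust fitting (edgeR 4.0.16, limma 3.58.1, DESeq2 1.42.0, R 4.3.3). Benjamini-Hochberg adjustment covered the whole table, with calls at 0.05. The labels do not say that libraries of a group are separate litters, so the p-values measure only the spread between these pools. No pair of GFP-positive libraries of the same genotype was a duplicate (chi-square over degrees of freedom 8.59 to 26.6). Other pairs were not checked.

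Residuals of knockout and control libraries with the same number correlated at r = 0.18 to 0.38, against -0.29 to 0.10 for other pairs, so the number was treated as a pairing and run as a block beside the main fit. Alternatives were other scalings, filters and tools, TPM with pseudocounts of 1 and 0.1, either genotype alone, the replicate block and each library left out. Scripts were tested on simulated data.

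The kinesins, role lists, partner lists and marker lists were chosen with earlier results of these data known. In each role group up to 5 called members per direction, the highest in TPM, the 5 smallest p between genotypes and up to 4 genes of each partner list were to be named. In the GFP comparison Kif11, Kif14, Kif18b, Kif20a, Kif2c, Kif4, Kif21a, Trak1, Klc4, Rhot2, Nde1 and Stard9 are outside this rule. So are the neuron and sensory markers given by name and the kinesins that differed one way in every numbered pair. All of these were picked with their values in view. Positions and exon overlaps are from GENCODE M21 (GRCm38).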

Additional observations from a re-analysis of the deposited data

Results flagged for a closer look

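In 76 groups of 5 GFP-positive libraries, 1 per kinesin or list sum and genotype, 6 had a library far from the other 4, and chance marks about 1 group in 20. Kif2c and Kif18b, both mitotic, were highest in control library 1, with 3.82 CPM against 1.57 CPM in the next library for Kif2c and 2.33 CPM against 0.670 CPM for Kif18b. That library also had the highest proliferation markers (109 CPM in sum), and the part of these in the values was not tested. Among transport motors, knockout library 1 was lowest for Kif1a, with 850.0 CPM against 990.6 CPM in the next, and for Kif21a, with 219 CPM against 228 CPM. Control library 2 was highest for Kif1b, with 965 CPM against 862 CPM in the next, and for Kif26b, with 129 CPM against 89.5 CPM.

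For Kif16b, knockout minus control was 1.75 CPM between the means of the GFP-positive libraries. In the GFP-negative libraries it was -0.034 CPM, too small, with 1 library per genotype, to read a direction from. The difference between the sorts was not tested.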

How the results depend on the processing

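For 31 counts, medians and mean levels that answer a comparison, 666 values under alternatives stayed close to the main value, and 9 moved. Close meant within 1.5-fold for a count, and within the SD between libraries for a median or mean level. Counts that stayed close could still gain or lose calls. With each library left out, 14 to 17 kinesins and 17 to 21 dynein and dynactin genes were called higher in GFP-positive cells. The axonal transport kinesins called lower in GFP-positive cells went to 1, against 2, on log2(TPM + 1) without a filter, where Kif5b was lost (adjusted p = 0.0524). The light chains and adaptors called lower numbered 3 by the main test, but 1 on log2(TPM + 1), on log2(TPM + 0.1), on log2(TPM + 1) without a filter and in knockout libraries alone, and 0 in control libraries alone. Leaving out each library in turn they numbered 1 to 3, with 1 without the control GFP-negative library. The mitotic median, -3.44 by the main test, was -2.84 on log2(TPM + 1) and -2.78 without a filter, a scale that pulls low genes toward 0, and -3.60 to -3.29 with each library left out. Kif13b, not called by the main test, turned positive at 0.0048 on log2(TPM + 1) with and without a filter, 0.0054 on log2(TPM + 0.1) and 0.010 in control libraries alone; it was called in none, and the cause was not tested.

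Among single genes named in the text, 993 values were the same, 43 calls were lost and 4 turned sign, the 4 of Kif13b. The lost calls were those of Kif9 (12), Kif26a (5), Kif6 (4), Kif13a (2), Kif1c (2), Kif17 (1), Kif27 (1), Kif5b (1) and Arhgap35 (15). With the replicate number as a block, the difference between GFP-positive and GFP-negative cells is estimated only among the libraries numbered 1. In that fit 16 kinesins were higher and 17 lower, Kif9 being the call that was lost, and the mitotic median was -3.05. The log2 fold changes of Kif4, Kif11, Kif2c, Kif18b, Kif14 and Kif20a moved by over 1.5 times in fold. Between genotypes the block left the count at 0. The lowest count of a mitotic kinesin in a GFP-positive library was that of Kif18b, 4 counts in control library 4, near the level of 3 counts. The part of depth in the spread of the mitotic kinesins was not tested. Each GFP-negative group is 1 library.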
